A study of Homo sapiens with 39 samples.

Results

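The PARP inhibitor effect in cells under androgen signalling blockade was measured here by adding talazoparib to enzalutamide: 3 libraries of cells given both drugs were compared with 3 libraries of cells given enzalutamide alone. These 6 libraries were taken by their treatment labels from the 39 RNA-seq libraries of the series. All came from C4-2B, a castration-resistant human prostate cancer line derived from LNCaP, a parent line that the study describes as carrying mutations in homologous recombination genes, and all were grown in RPMI 1640 with 10% fetal bovine serum. The series holds a drug panel of 21 libraries (vehicle, single drugs and pairs) and an olaparib time course that was not used. In every group used here the treatment lasted 5 days: enzalutamide, an antiandrogen, at 20 uM; enzalutamide 20 uM with talazoparib, a PARP inhibitor, at 10 nM (the combination); vehicle (DMSO); talazoparib 10 nM alone; abiraterone acetate, which blocks androgen synthesis, at 5 uM; and abiraterone acetate 5 uM with the PARP inhibitor olaparib at 1 uM. Each group had 3 libraries, named A, B and C. The labels do not say whether these were separate cultures, so the p-values measure only the spread between these samples, and a single cell line was used throughout.

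PARP1 and PARP2 are enzymes that bind breaks in DNA and attach chains of ADP-ribose to proteins there. Inhibitors such as talazoparib block that activity and hold the enzymes on DNA, which hinders replication forks and calls on homologous recombination and on the ATM, ATR and p53 checkpoint. p53 induces the CDK inhibitor p21 (CDKN1A), and p21 lowers transcription of cell cycle genes through the RB family and the DREAM complex. Androgen signalling sustains luminal prostate cells and their secretory genes, such as KLK3, which encodes PSA.

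The 6 libraries held between 29391817 and 49544844 counts, and the whole panel between 26932205 and 49833473. Luminal prostate markers were present throughout, with 12 of 12 detected and a summed level of 4193 to 4257 CPM (counts scaled to a common library size) with enzalutamide and 4509 to 4519 CPM with the combination. Summed markers of other cell types were low and in part higher in the combination: fibroblast markers at 19.9 to 20.8 against 23.4 to 23.9 CPM (mostly COL1A1, with COL1A2, DCN and LUM at 0 counts), endothelial markers at 11.6 to 12.7 against 15 to 16 CPM (mostly VWF, with CLDN5 at 0), and leukocyte markers at 3.09 to 3.70 against 5.56 to 6.18 CPM (mostly CD68, with CD3E at 0). Basal prostate markers summed to at most 0.13 CPM and erythroid markers to at most 1.11 CPM in each of these libraries. Genes of the mitochondrial genome took 11.3 to 12.3% of counts with enzalutamide and 13.5 to 13.8% with the combination, and the part of this shift in the results was not tested beyond leaving those genes out. In these bulk libraries, fewer cells in a state and less RNA per cell cannot be told apart.

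Talazoparib changed the expression of 6414 of 18625 tested genes in enzalutamide-treated cells, by edgeR's quasi-likelihood test with Benjamini-Hochberg adjustment over all tested genes, which stands behind every adjusted p-value below. Of the tested genes 3077 (16.5%) were higher and 3337 (17.9%) lower in the combination, and 3174 and 3197 when mitochondrial genes were left out. Most changes were small: the median absolute log2 fold change of the changed genes was 0.25, and 328 higher and 115 lower genes passed a 2-fold change. The median log2 fold change of all tested genes was -0.00073. The same drug without enzalutamide (talazoparib against DMSO, which shares no library with the comparison above) raised 3435 genes (18.4%) and lowered 2865 (15.4%). The effect of talazoparib differed with and without enzalutamide, as an interaction term in the same fit, for 991 genes more positive with enzalutamide (5.32%) and 1355 more negative (7.28%). The gene lists below were chosen by function, and a list is read against these shares. Every combination library lay above every enzalutamide library for 4200 of the 18625 tested genes, and below every one for 4491. Groups without overlap were thus common, and those named below are read against these counts.

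The largest rises among protein-coding genes with sufficient counts (the higher group averaging 100 or more) were in APOBEC3H, a cytidine deaminase that restricts retroviruses (chr22:39097224-39104067, GRCh38), and TRIM22, an antiviral ubiquitin ligase and p53 target. APOBEC3H measured 0.30, 0.40 and 0.55 CPM in the enzalutamide libraries A, B and C and 3.28, 3.18 and 3.48 CPM in the combination. Its log2 fold change was 2.95 ± 0.21 (SE; adjusted p = 1.79e-13). All combination libraries lay well above all enzalutamide libraries, though the gene remained at a low level. TRIM22 went from 0.40, 0.38 and 0.50 CPM to 3.40, 2.99 and 3.13 CPM, a log2 fold change of 2.88 ± 0.24 (adjusted p = 1.11e-11). Behind them came ACTA2, smooth muscle actin (log2 fold change 2.62), SULF2, an extracellular sulfatase of heparan sulfate (2.60), CEL, a bile salt-dependent lipase (2.58), CDKN1A (2.13), GPNMB, a lysosomal membrane glycoprotein (1.95), and BLNK, an adaptor of B cell receptor signalling (1.89). GPNMB stood at 7.47, 6.91 and 7.37 CPM with enzalutamide and at 28.6, 29.7 and 25.5 CPM with the combination, again without overlap.

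Among protein-coding genes with a symbol and sufficient counts, the 8 largest falls included 3 genes of amino acid metabolism, CHAC1, SLC7A11 and ASNS, described below with the other targets of the transcription factor ATF4. NIBAN1, a stress-responsive regulator of translation (chr1:184790724-184974508, GRCh38), fell from 68.8, 54.1 and 64.3 CPM to 20.1, 18.9 and 18.1 CPM, a log2 fold change of -1.70 (adjusted p = 3.9e-08). Without enzalutamide its log2 fold change was -1.07, and the difference of -0.64 passed the test (adjusted p = 0.0262) but lost it under 7 alternatives (adjusted p between 0.0576 and 0.0986), a fit of only the groups compared among them. The remaining falls were in STYXL2, a pseudophosphatase (log2 fold change -1.58), the ETS factor ETV4 (-1.48), PDE2A, a cyclic nucleotide phosphodiesterase (-1.33), and DHRS2, a short-chain dehydrogenase (-1.30). PDE2A was at 4.64, 3.82 and 3.47 CPM with enzalutamide and at 1.68, 1.60 and 1.43 CPM with the combination. It had a log2 fold change of only -0.16 without enzalutamide, and the difference between both settings was -1.17 (adjusted p = 0.00216).

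Targets of p53 rose with talazoparib in enzalutamide-treated cells. Of 34 tested genes of arrest and feedback, 27 rose and 1 fell, with a median log2 fold change of 0.61, and of 14 tested genes of cell death 8 rose and 1 fell, with a median of 0.46. CDKN1A (chr6:36676460-36687337, GRCh38) measured 58.9, 62.8 and 61.5 CPM in the enzalutamide libraries and 268, 265 and 267 CPM in the combination, a log2 fold change of 2.13 ± 0.052 (adjusted p = 6.47e-17). The DMSO libraries lay at 58.2, 57.3 and 46.8 CPM and the talazoparib libraries at 217, 211 and 212 CPM, so the groups with the inhibitor stood apart from the groups without it in both settings. The difference between the log2 fold changes with and without enzalutamide was 0.14 (adjusted p = 0.241), and without DMSO library C it was 0.24 and passed the test (adjusted p = 5.48e-04).

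**Figure D1:**
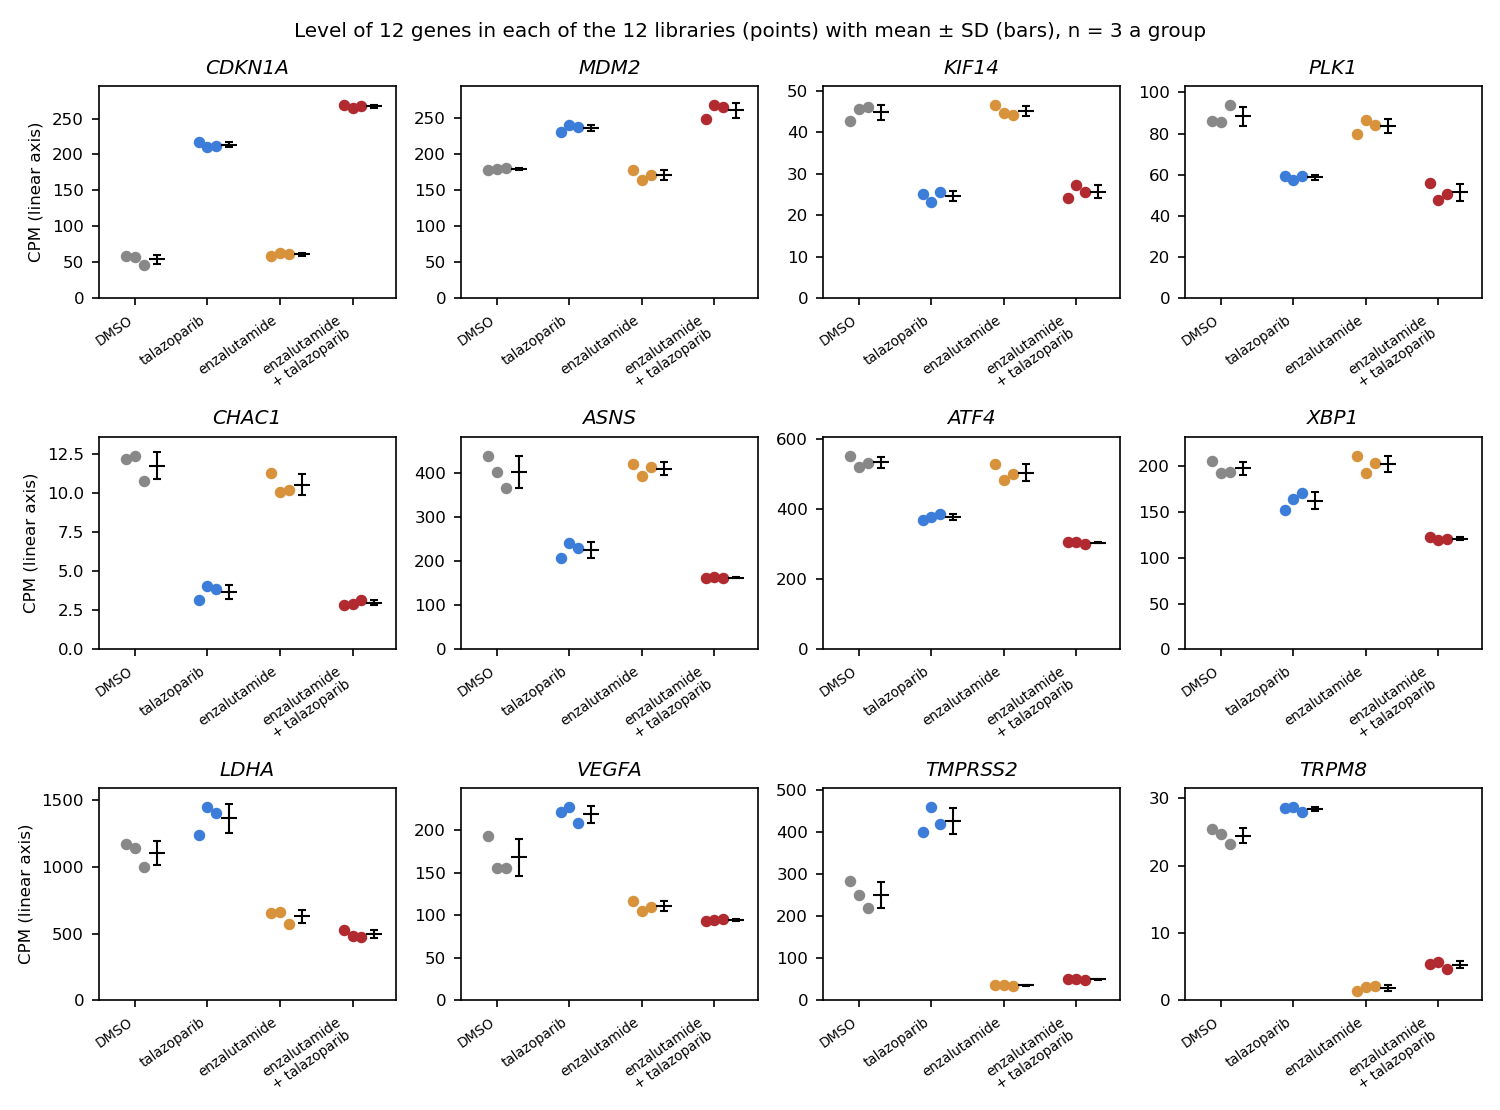
Expression of 12 genes in CPM (vertical axes, linear, TMM-normalized) in the libraries of 4 groups, DMSO, talazoparib, enzalutamide and the combination; each point is a library and the bar shows the mean with its SD (n = 3). CDKN1A lay between 265 and 268 CPM in the combination against 58.9 to 62.8 CPM with enzalutamide, while LDHA was higher with talazoparib alone than with DMSO and lower in the combination than with enzalutamide.

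The feedback arm moved with CDKN1A. MDM2, the ubiquitin ligase that degrades p53, rose from 178, 165 and 171 CPM to 249, 268 and 265 CPM, a log2 fold change of 0.61 ± 0.029 (adjusted p = 4.31e-18). That of PPM1D, a phosphatase that dampens the checkpoint, was 0.55. BTG2, an antiproliferative regulator of mRNA decay, went from 34.1, 27.8 and 28.3 CPM to 81.6, 74.8 and 76.3 CPM (log2 fold change 1.38), and SPATA18, a mitochondrial quality control factor, from 5.34, 5.33 and 5.22 CPM to 18.5, 19.6 and 18.1 CPM (1.82). In none of these genes did the combination and enzalutamide libraries overlap, a trait shared with many of the tested genes. Among the death genes, the receptor FAS rose from 6.34, 7.05 and 7.21 CPM to 14.4, 14.3 and 14 CPM (log2 fold change 1.05), BBC3, which encodes PUMA, from 2.67, 2.03 and 2.13 CPM to 5.16, 4.45 and 3.98 CPM (1.01), and BAX, the pore-forming effector, had a log2 fold change of 0.46. PMAIP1, which encodes NOXA, fell from 10.3, 9.29 and 8.91 CPM to 7.38, 7.05 and 6.82 CPM (log2 fold change -0.42, adjusted p = 0.00114). In the BCL2 family as a whole, which shares BBC3, BAX and PMAIP1, 8 of 14 tested genes rose and 1 fell, among the risers the BH3-only genes BMF (0.60) and BIK (0.37).

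A few p53 targets responded differently with enzalutamide. For 5 of the 34 arrest and feedback genes the effect was more positive with enzalutamide, namely MDM2, ZMAT3, SESN1, POLH and TP53INP1. ZMAT3, an RNA-binding tumour suppressor, had a log2 fold change of 1.17 with enzalutamide and 0.87 without it (difference 0.30, adjusted p = 2.91e-04), and SESN1, an inhibitor of mTORC1 signalling, 1.07 and 0.72 (difference 0.34, adjusted p = 0.00603). That count was between 4 and 8 when single libraries were left out. PLK3, a stress-responsive kinase, went the other way. It fell from 17.9, 18.1 and 15.9 CPM to 10.6, 10.3 and 10.2 CPM in enzalutamide-treated cells, whereas it measured 5.60, 5.65 and 5.57 CPM with DMSO and 9.07, 8.11 and 7.06 CPM with talazoparib alone. The log2 fold changes of -0.73 and 0.52 differed by -1.25 (adjusted p = 2.54e-07). GDF15, a secreted stress factor, had log2 fold changes of 0.39 with enzalutamide (adjusted p = 0.0515) and 0.99 without it, and their difference did not pass the test (adjusted p = 0.0627).

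Mitotic genes fell almost as a whole. Of 68 tested genes of mitosis and the kinetochore 67 were lower in the combination, with a median log2 fold change of -0.45, and all 68 were lower with talazoparib alone (median -0.50). KIF14, a kinesin of cytokinesis (chr1:200551497-200620751, GRCh38), measured 46.5, 44.6 and 44.1 CPM with enzalutamide and 24.2, 27.3 and 25.6 CPM with the combination, a log2 fold change of -0.81 ± 0.052 (adjusted p = 1.41e-14). CENPE, a kinetochore motor, went from 114, 111 and 114 CPM to 65.4, 71.3 and 69.2 CPM (-0.72), and PLK1, a kinase of mitotic entry and spindle assembly, from 79.8, 86.7 and 84.3 CPM to 56.1, 47.9 and 50.6 CPM (-0.70 ± 0.051, adjusted p = 2.5e-11). The groups were apart for each of these genes. CDK1 was the 1 gene that did not pass, at 339, 363 and 346 CPM against 340, 349 and 330 CPM (log2 fold change -0.04, adjusted p = 0.43), with overlapping groups. The effects with and without enzalutamide differed for 4 of the 68 genes, 2 in each direction: KIF20A and DLGAP5 fell more with enzalutamide, and CDCA5 and NCAPD2 fell less.

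The start regions of these genes are shown because members of the list shared a letter pattern there. The cell cycle genes homology region (CHR, TTTGAA) and the CCAAT box (CCAAT), searched on both strands, are elements known from promoters of mitotic genes. Windows of 300 bases, from 250 before to 50 after the gene start of RefSeq (GRCh38.p14), which can differ from the bounds given for genes here, were available for 12301 of the 18625 tested genes and for 59 of the 68 mitotic genes. TTTGAA stood in 37 of the 59 windows (62.7%), against 9.76% of the windows of all tested genes and 15.4% of the whole table. CCAAT stood in 41 (69.5%), against 36.9% and 35.7%, and both in 28 (47.5%), against 4.18% and 6.08%. The windows of KIF14 (chr1:200620702-200621001, minus strand) and PLK1 (chr16:23678639-23678938, plus strand) hold both, marked in capitals on either strand. The window of CENPE does not hold TTTGAA. A match is a description of the letters in this window and not a site.
KIF14: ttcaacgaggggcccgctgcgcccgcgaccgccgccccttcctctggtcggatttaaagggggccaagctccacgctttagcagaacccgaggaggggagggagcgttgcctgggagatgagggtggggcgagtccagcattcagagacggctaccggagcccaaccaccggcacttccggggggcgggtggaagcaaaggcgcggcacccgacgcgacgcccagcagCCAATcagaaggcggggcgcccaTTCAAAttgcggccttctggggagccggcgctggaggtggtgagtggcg
PLK1: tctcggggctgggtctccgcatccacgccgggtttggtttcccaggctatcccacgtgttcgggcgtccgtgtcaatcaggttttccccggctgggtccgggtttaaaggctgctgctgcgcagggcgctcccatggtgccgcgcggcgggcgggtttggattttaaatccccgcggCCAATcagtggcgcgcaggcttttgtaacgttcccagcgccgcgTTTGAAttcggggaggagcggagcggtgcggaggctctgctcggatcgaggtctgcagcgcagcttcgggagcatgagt

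DNA replication genes fell less. Of 57 tested genes 40 fell and 1 rose in the combination (median log2 fold change -0.19), and 51 fell and 1 rose with talazoparib alone (median -0.35). CDC45, a subunit of the replicative helicase, went from 38.6, 40.8 and 40.5 CPM to 28.2, 28.8 and 29.1 CPM (log2 fold change -0.48). Those of thymidine kinase TK1 and the primase subunit PRIM1 were -0.45 and -0.40. LIG1, the ligase that joins Okazaki fragments, was the gene that rose, from 24.1, 21.7 and 23.0 CPM to 27.3, 27 and 27.3 CPM (0.25, adjusted p = 0.00167). In 12 of the 57 genes the effect was more positive with enzalutamide, and for 1 more negative. Among the 12, the E2F repressor E2F7 had a log2 fold change of -0.15 with enzalutamide and -0.61 without it (difference 0.45, adjusted p = 0.00216). In the start regions described above, TTTCGCGC, a pattern bound by E2F factors, stood in 5 of 47 windows of this list (10.6%), against 1.01% of all tested genes and 0.546% of the whole table. The count of 12 moved between 8 (without DMSO library C) and 23 (without DMSO library A). A list of G1 regulators held D cyclins, CDK4/6, their inhibitors, CDK2 and genes of the RB, E2F and LIN groups. Of its 22 genes 3 rose and 8 fell, with CDK2, RBL1, LIN9 and LIN54 among the fallers. Besides CDKN1A, cyclin D1 (CCND1, 0.23) and E2F3 (0.26) rose, while the INK4 genes CDKN2C (-0.55), CDKN2D (-0.44) and CDKN2A (-0.39) fell.

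Genes of homologous recombination and the Fanconi anemia pathway, which repair breaks and crosslinks at forks, fell in 24 of 45 cases and rose in none (median log2 fold change -0.16). With talazoparib alone 33 of the 45 fell (median -0.34). BRCA2, a core factor of strand repair, measured 87.4, 91.1 and 94.8 CPM with enzalutamide and 58.4, 68.6 and 71.0 CPM with the combination, a log2 fold change of -0.47 ± 0.10 (adjusted p = 0.00228). Without enzalutamide it was -0.91, and the difference of 0.44 did not pass the test (adjusted p = 0.0703), though it did under 5 alternatives (0.45 to 0.56, adjusted p between 0.0132 and 0.0469), DESeq2 among them. BRCA1 went from 82.3, 87.4 and 87.1 CPM to 71.9, 77.0 and 77.9 CPM (-0.18, adjusted p = 0.00542), a call lost without combination library A (-0.14, adjusted p = 0.0531). The groups of both genes did not overlap, and for BRCA1 the fall was smaller than without enzalutamide (-0.47, difference 0.28, adjusted p = 0.00943).

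For 10 of the 45 repair genes, BRCA1 included, talazoparib had a more positive effect with enzalutamide than without it, and the count was between 8 and 17 when single libraries were left out, with 17 without talazoparib library A. FANCD2, the monoubiquitinated core of the crosslink pathway, had log2 fold changes of -0.17 with and -0.62 without enzalutamide (difference 0.45, adjusted p = 5.79e-04). BARD1, the partner of BRCA1, had 0.06 and -0.33 (difference 0.39, adjusted p = 5.4e-06). PALB2, which links BRCA1 to BRCA2, was the reverse case: it fell from 24.8, 23.5 and 23.6 CPM to 21.1, 20.6 and 21.3 CPM with enzalutamide (-0.19, adjusted p = 0.00175), against 0.07 without it (difference -0.26, adjusted p = 0.00675). RBBP8, which encodes the end-resection factor CtIP, and UBE2T, the Fanconi ubiquitin-conjugating enzyme, fell by 0.42 and 0.39 on the log2 scale.

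Checkpoint genes followed with 12 of 24 lower and 1 higher. H2AX, the histone phosphorylated at breaks (-0.38), the kinase CHEK2 (-0.34) and the adaptor MDC1 (-0.32) had the largest falls. ATM, the kinase that senses double-strand breaks, was the gene that rose, from 46.8, 49.2 and 52.5 CPM to 55.1, 58.4 and 58.4 CPM (log2 fold change 0.21, adjusted p = 0.00576). Its log2 fold change without enzalutamide was -0.18, and the effects differed by 0.38 (adjusted p = 0.00209). A further list held the PARP family, PARG and other genes such as HPF1 and POLB. Of its 24 genes 3 rose and 7 fell (12.5% and 29.2%, against 16.5% and 17.9% of all tested genes). XRCC1, LIG3 and MACROD1, which are not PARP enzymes, also fell and are part of that count. The drug targets PARP1 and PARP2 were among the fallers: PARP1 went from 524, 538 and 525 CPM to 479, 482 and 476 CPM (-0.14, adjusted p = 1.69e-06), and PARP2 from 36.5, 37.1 and 36.6 CPM to 31.1, 32.2 and 31.6 CPM (-0.22, adjusted p = 4.72e-04). The groups of both were apart, by small amounts. The mono-ADP-ribosyltransferases TIPARP (0.38) and PARP10 (0.29) rose. PARP14, an interferon-induced member, had -0.21 with and 0.21 without enzalutamide, a difference of -0.42 (adjusted p = 0.00436).

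**Figure D2:**
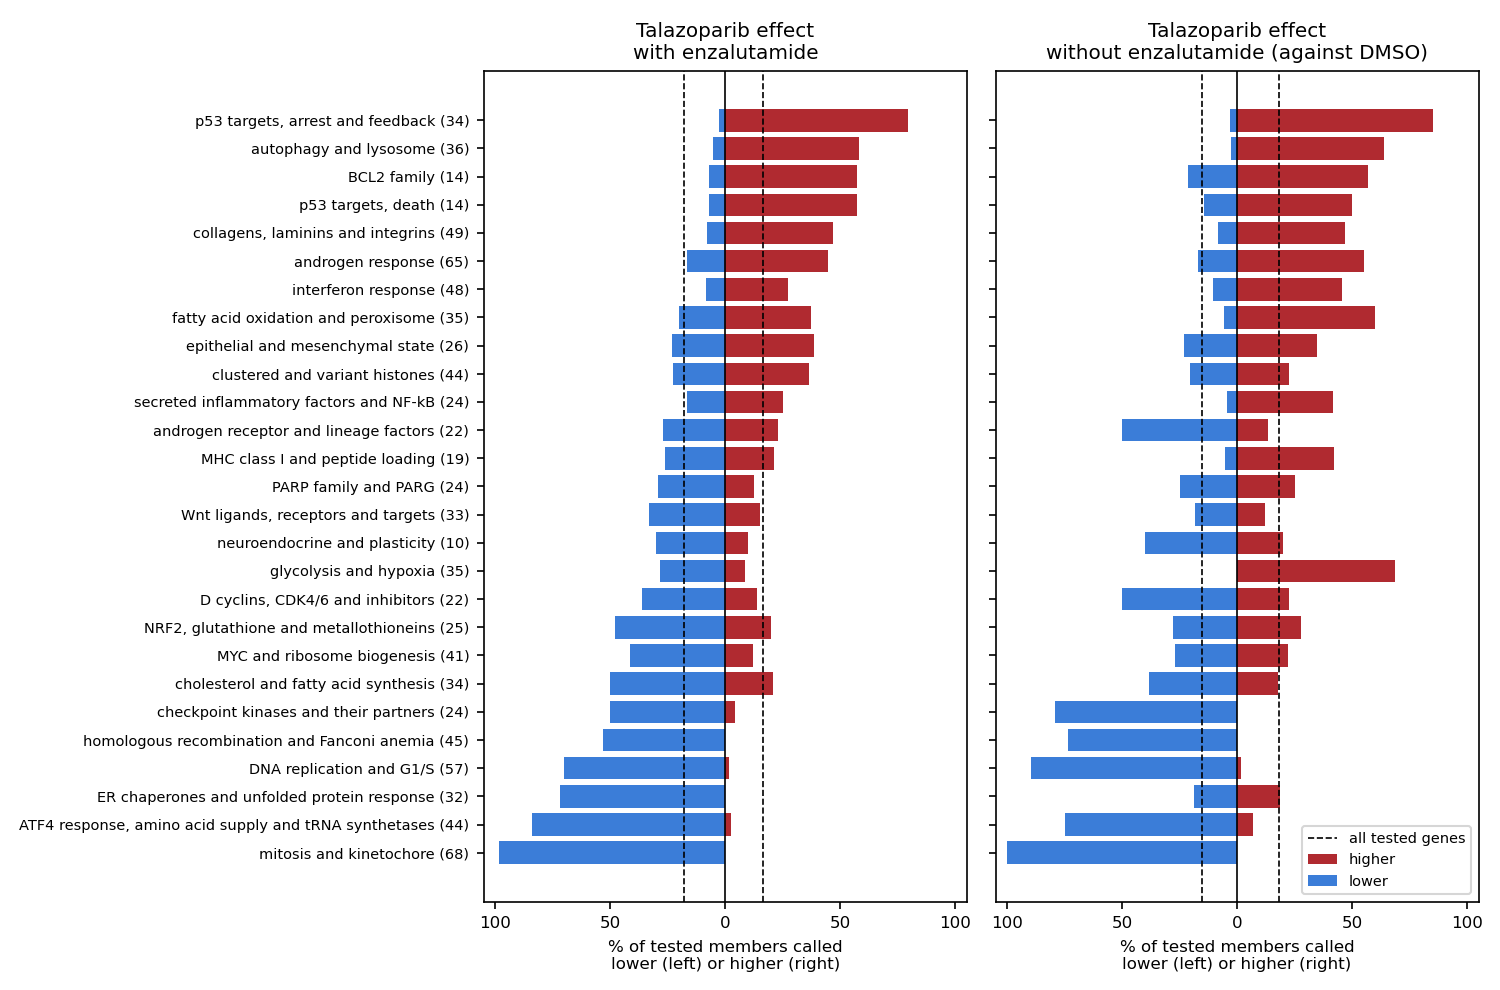
Share of the tested members of 27 gene lists that were higher or lower (horizontal axis, percent of members, lower to the left) when talazoparib was added to enzalutamide and when it was added to DMSO; dashed lines give the shares of all tested genes (16.5% and 17.9%, and 18.4% and 15.4%). Mitotic genes were lower in 98.5% of cases with enzalutamide, and glycolysis genes were higher in 24 of 35 cases without enzalutamide and in 3 of 35 with it.

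Genes of the ATF4 response fell more with enzalutamide than without it. ATF4 is the transcription factor of the integrated stress response that drives amino acid import, serine and asparagine synthesis and the charging of tRNAs. Of 44 tested genes of this response and of the cytosolic tRNA synthetases, 37 fell and 1 rose in the combination, with a median log2 fold change of -0.56. With talazoparib alone 33 fell and 3 rose (median -0.41). The effect was more negative with enzalutamide for 26 of the 44 and more positive for none, against 7.28% of all tested genes, and this count was between 21 and 27 when single libraries were left out. ATF4 itself measured 529, 482 and 501 CPM with enzalutamide and 305, 307 and 302 CPM with the combination, a log2 fold change of -0.73 ± 0.028 (adjusted p = 9.77e-21). It measured 551, 520 and 531 CPM with DMSO and 368, 379 and 385 CPM with talazoparib alone (-0.50). The combination libraries were the lowest of the 4 groups, and the difference of -0.23 passed the test (adjusted p = 1.08e-04).

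CHAC1, a glutathione-degrading enzyme (chr15:40952962-40956512, GRCh38), measured 11.3, 10.1 and 10.2 CPM with enzalutamide and 2.86, 2.92 and 3.16 CPM with the combination, a log2 fold change of -1.82 ± 0.12 (adjusted p = 6.38e-14). Without enzalutamide it had -1.66, and the difference of -0.16 did not pass the test (adjusted p = 0.63). SLC7A11, the cystine importer (chr4:138164097-138242349, GRCh38), fell from 218, 195 and 220 CPM to 65.6, 69.6 and 73.0 CPM (-1.61 ± 0.069, adjusted p = 1.94e-11). Asparagine synthetase, ASNS (chr7:97851677-97872542, GRCh38), went from 421, 393 and 414 CPM to 161, 164 and 163 CPM (-1.33 ± 0.062, adjusted p = 1.11e-10). For all 3 genes every combination library lay below every enzalutamide library. ASNS was among the genes with an added fall: DMSO libraries held 438, 402 and 366 CPM and talazoparib libraries 207, 242 and 229 CPM, so the log2 fold change without enzalutamide was -0.83 and the difference -0.50 (adjusted p = 0.00123).

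The start regions of CHAC1 and ASNS are shown because both hold the letters TGATGNAA, the pattern of the amino acid response element that ATF4 binds together with a C/EBP partner. It was searched on both strands and stands in 11 of the 36 windows found for the 44 genes (30.6%), against 1.69% of all tested genes and 3.67% of the whole table. The windows are at chr15:40953221-40953520 (plus strand) and chr7:97872359-97872658 (minus strand), GRCh38.p14 from RefSeq, with this pattern alone in capitals. The windows of TRIB3, GARS1 and WARS1 do not hold it.
CHAC1: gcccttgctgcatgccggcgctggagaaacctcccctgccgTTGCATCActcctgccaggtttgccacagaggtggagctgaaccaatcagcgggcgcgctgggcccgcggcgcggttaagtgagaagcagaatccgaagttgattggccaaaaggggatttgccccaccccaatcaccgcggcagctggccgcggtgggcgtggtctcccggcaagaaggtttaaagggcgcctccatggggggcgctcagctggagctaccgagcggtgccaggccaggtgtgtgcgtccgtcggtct
ASNS: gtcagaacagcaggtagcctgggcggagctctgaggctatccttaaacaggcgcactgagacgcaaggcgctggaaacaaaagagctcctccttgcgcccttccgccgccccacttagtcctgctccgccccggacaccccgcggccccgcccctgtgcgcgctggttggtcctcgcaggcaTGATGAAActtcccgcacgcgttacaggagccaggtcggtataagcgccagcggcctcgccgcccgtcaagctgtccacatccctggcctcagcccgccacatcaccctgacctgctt

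The response fell in each of its branches, which were set apart after the values were seen. All 6 amino acid transporters fell (median log2 fold change -0.95), among them SLC7A5 (-0.93), SLC1A5 (-0.97) and SLC1A4 (-1.25). So did all 6 enzymes of serine synthesis and one-carbon metabolism (median -0.72). PSAT1, the serine aminotransferase, went from 472, 458 and 481 CPM to 230, 219 and 220 CPM (-1.08), and MTHFD2, the mitochondrial folate enzyme, had -0.83. Of 20 cytosolic tRNA synthetases 16 fell and 1 rose (median -0.43), and in 13 the fall was larger with enzalutamide. Glycyl-tRNA synthetase GARS1 fell from 311, 298 and 320 CPM to 167, 169 and 169 CPM (-0.88 against -0.52 without enzalutamide, difference -0.36, adjusted p = 1.16e-06). QARS1, for glutamine, was the synthetase that rose, at 186, 196 and 184 CPM against 209, 197 and 200 CPM (0.10, adjusted p = 0.00528). Of 17 mitochondrial synthetases, which were not on the list, 6 fell and 2 rose, with a median of -0.0060.

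Other ATF4 targets were mixed in size. TRIB3, a pseudokinase that feeds back on the pathway, went from 54.7, 54.7 and 56.6 CPM to 23.8, 21.8 and 23.6 CPM (log2 fold change -1.26, against -0.91 without enzalutamide, difference -0.35, adjusted p = 0.00406). The partner factor CEBPB had -0.93 and DDIT3, which encodes CHOP, -0.32. SESN2, a leucine sensor that is a target of both ATF4 and p53, measured 27.7, 26.7 and 29.2 CPM against 27.4, 28.1 and 27.6 CPM (-0.01, adjusted p = 0.918). DDIT4, an mTORC1 inhibitor, had 0.08 with enzalutamide (adjusted p = 0.586) and 0.62 without it (difference adjusted p = 0.0187).

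**Figure D3:**
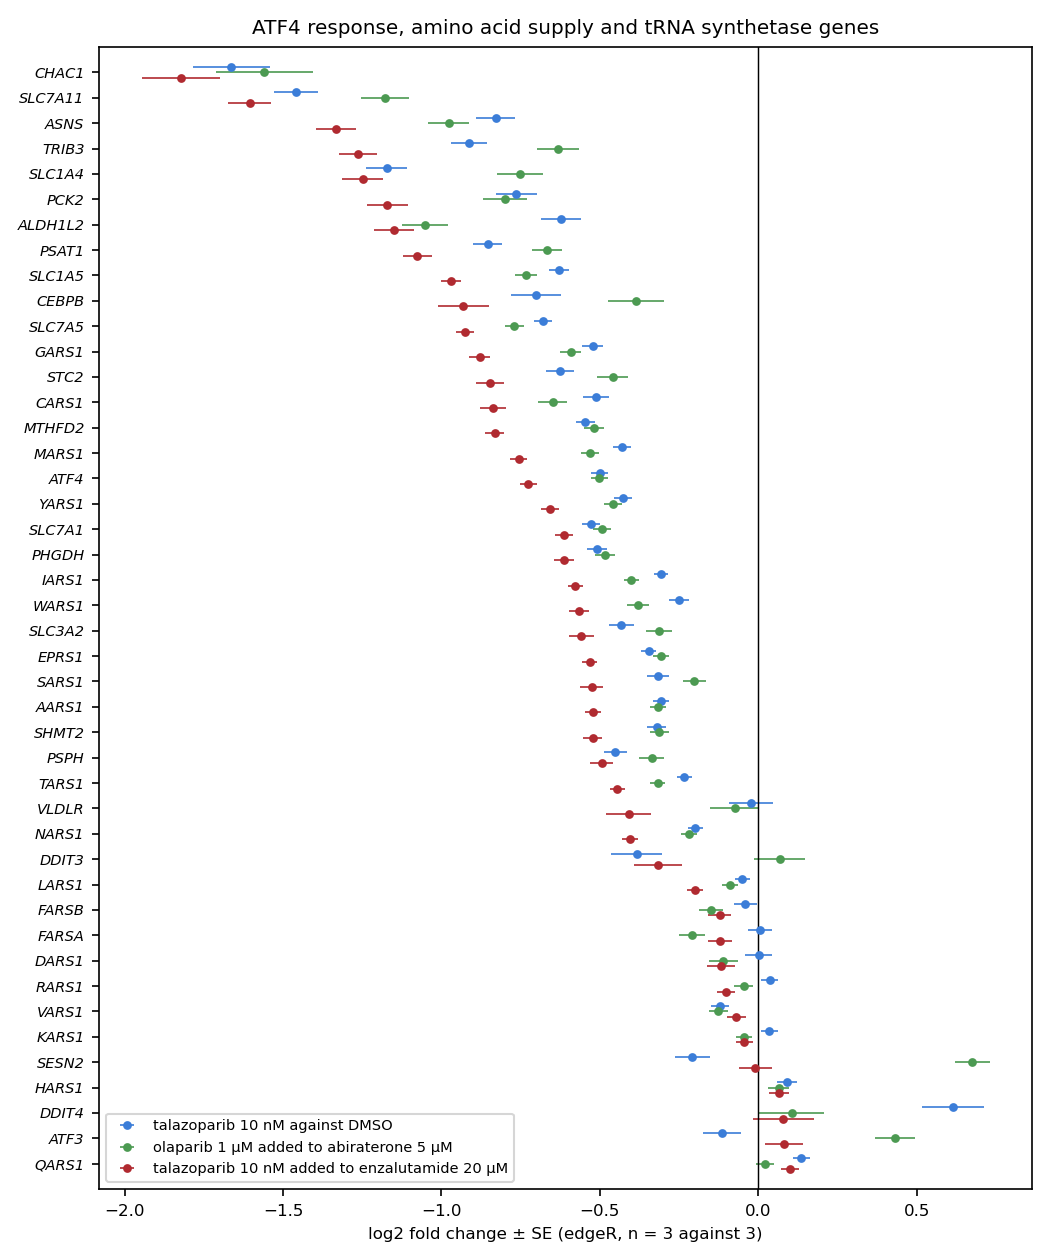
Log2 fold changes with their SE of the 44 tested genes of the ATF4 response and cytosolic tRNA synthetases (horizontal axis, log2) for talazoparib added to enzalutamide, talazoparib against DMSO, and olaparib added to abiraterone. 37 genes were lower when talazoparib was added to enzalutamide, from CHAC1 at -1.82 upward, and most lay further left than with talazoparib alone.

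Genes of the endoplasmic reticulum (ER), which fold and export secreted proteins, fell with talazoparib when enzalutamide was present. Of 32 tested chaperones and unfolded protein response genes 23 fell and none rose (median log2 fold change -0.18), whereas without enzalutamide 6 rose and 6 fell (median -0.01). With enzalutamide the effect was more negative for 20 of the 32 and more positive for none; without talazoparib library C the count was 13. XBP1, the factor activated by IRE1 splicing (chr22:28794555-28800597, GRCh38), measured 211, 193 and 204 CPM with enzalutamide and 123, 119 and 121 CPM with the combination, a log2 fold change of -0.74 ± 0.037 (adjusted p = 5.76e-17). It measured 206, 193 and 194 CPM with DMSO and 153, 164 and 171 CPM with talazoparib alone, so it was lowest in the combination, and the effects differed by -0.46 (adjusted p = 1.69e-07). The oxidase ERO1B, which makes disulfide bonds, went from 10.8, 11.2 and 11.1 CPM to 6.90, 6.72 and 7.99 CPM (-0.62, against -0.05 without enzalutamide, difference adjusted p = 0.00443). HSPA5, the major ER chaperone BiP, moved by little and in opposite directions: 822, 840 and 839 CPM against 766, 768 and 773 CPM with enzalutamide (-0.12, adjusted p = 5.24e-04), and 979, 963 and 922 CPM against 1023, 1088 and 1123 CPM without it (0.18, difference -0.29, adjusted p = 6.77e-07).

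Most glycolysis and hypoxia genes rose with talazoparib alone, and most of them passed the test in neither direction with enzalutamide. Without enzalutamide talazoparib raised 24 of 35 and lowered none (median log2 fold change 0.24), and with enzalutamide it raised 3 and lowered 10 (median -0.08). The effect was more negative with enzalutamide for 21 of the 35 and more positive for none. LDHA, lactate dehydrogenase (chr11:18394560-18408425, GRCh38), measured 1168, 1140 and 998 CPM with DMSO and 1238, 1444 and 1404 CPM with talazoparib, but 650, 663 and 570 CPM with enzalutamide and 527, 484 and 471 CPM with the combination. The groups did not overlap in either setting, and the log2 fold changes of 0.31 and -0.35 differed by -0.65 (adjusted p = 0.00219). PFKP, the platelet phosphofructokinase, had 0.49 and -0.32, PDK1, the kinase that restrains pyruvate dehydrogenase, 0.31 and -0.36, and the growth factor VEGFA 0.38 and -0.24 (adjusted p of the difference 4.29e-04, 0.00217 and 5.23e-04). VEGFA lay at 117, 106 and 110 CPM with enzalutamide and at 92.9, 94.2 and 95.1 CPM with the combination. NDRG1, a gene of both the hypoxia and the androgen response lists, measured 178, 152 and 138 CPM with DMSO and 396, 411 and 399 CPM with talazoparib, against 68.7, 71.5 and 60.9 CPM with enzalutamide and 76.4, 73.0 and 70.9 CPM with the combination. The last pair overlapped (log2 fold change 0.13, adjusted p = 0.312), and the difference from 1.37 was -1.23 (adjusted p = 1.43e-05). HIF1A, the hypoxia factor itself, rose by 0.12 on the log2 scale with enzalutamide and by 0.21 without it.

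**Figure D4:**
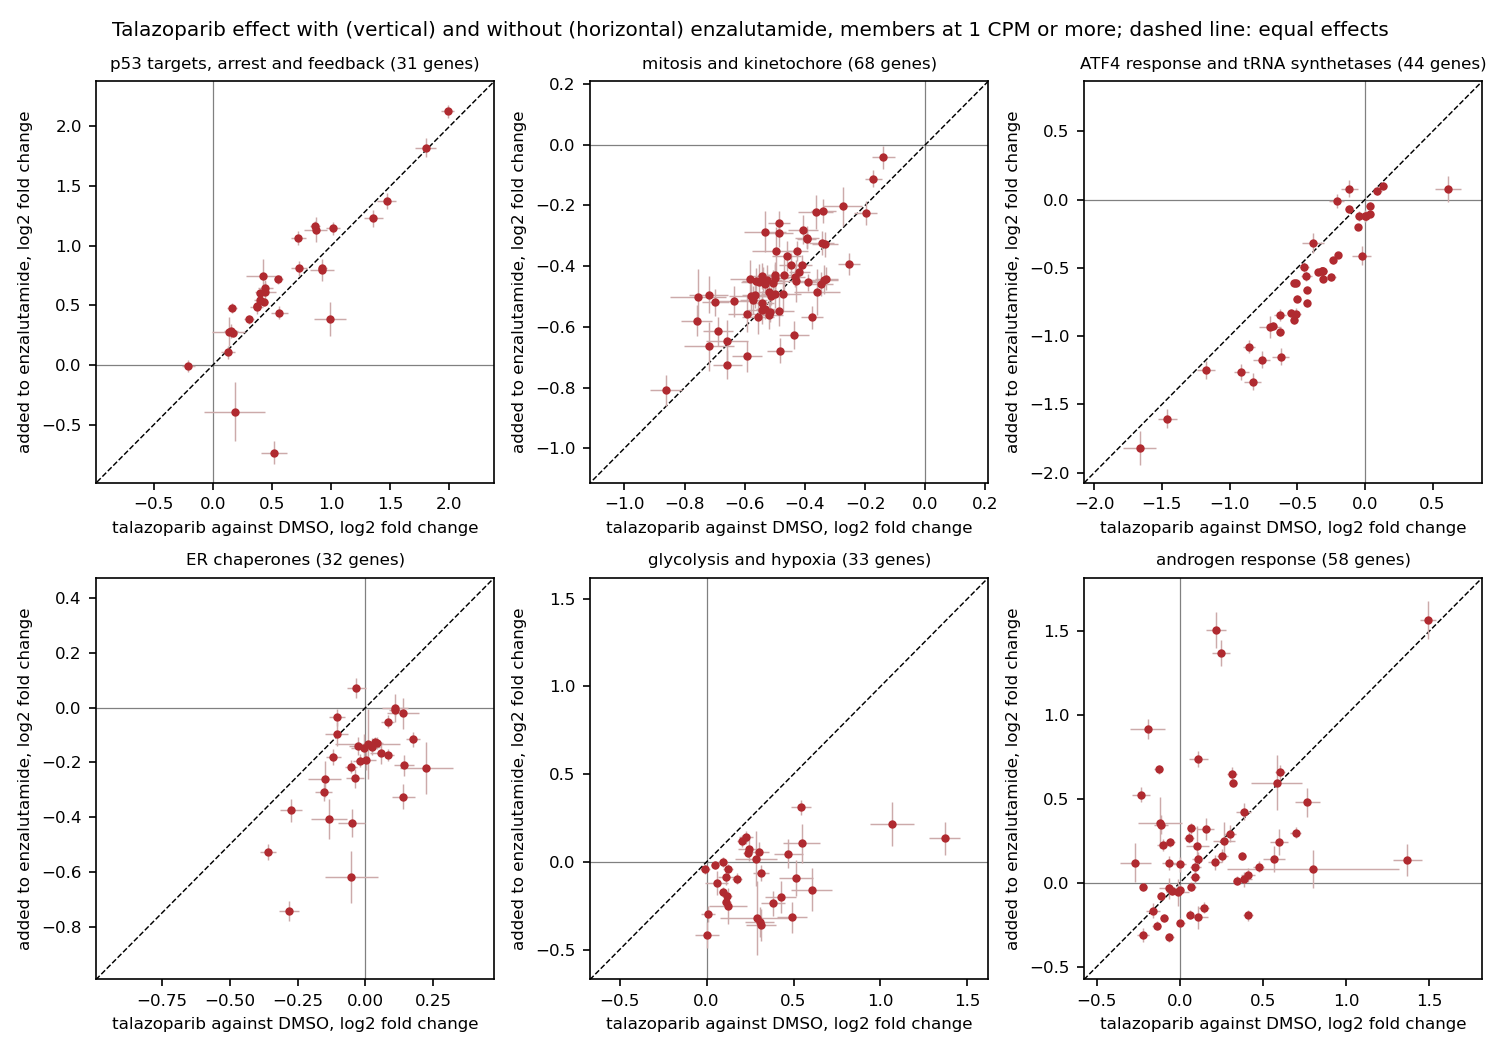
Log2 fold change of talazoparib added to enzalutamide (vertical axis) against that of talazoparib added to DMSO (horizontal axis) for the members of 6 lists with at least 1 CPM in the enzalutamide libraries; each point is a gene, bars are SE and the diagonal marks equal effects. Mitotic genes lay along the diagonal, ATF4 response and ER genes mostly under it, and most glycolysis and hypoxia genes to the right of 0 and under the diagonal.

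The androgen axis is what enzalutamide blocks, and the level of its genes with enzalutamide is the starting point for this comparison. The mineralocorticoid receptor NR3C2, a steroid hormone receptor, rose from 5.84, 5.26 and 5.51 CPM to 9.26, 9.10 and 9.02 CPM (0.73, against -0.24 without enzalutamide, difference 0.97, adjusted p = 1.01e-06). Among 22 tested receptors, cofactors and lineage factors 5 rose (22.7%) and 6 fell (27.3%), against 16.5% and 17.9% of all tested genes. The luminal factors FOXA1 (-0.28), HOXB13 (-0.16) and SPDEF (-0.31) fell, as did the ETS factors ETV4 and ETV5 (-0.98). For 7 of the 22 the effect was more positive with enzalutamide, among them the coactivators CREBBP and EP300.

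Of 65 tested androgen response genes 29 rose and 11 fell in the combination (median log2 fold change 0.12), close to the 36 and 11 found with talazoparib alone (median 0.14). The effects differed by gene: they were more positive with enzalutamide for 15 and more negative for 17. TRPM8, a cold-sensing channel (chr2:233917373-234019522, GRCh38), was the clearest of the former. It measured 25.4, 24.7 and 23.2 CPM with DMSO, 28.5, 28.7 and 28.0 CPM with talazoparib, 1.37, 1.91 and 2.20 CPM with enzalutamide and 5.46, 5.73 and 4.68 CPM with the combination. The combination thus lay above enzalutamide alone in all libraries and far below DMSO. Its log2 fold change was 1.51 ± 0.11 with enzalutamide (adjusted p = 1.79e-13) and 0.22 without it, a difference of 1.29 (adjusted p = 5.08e-09).

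ZBTB16, which encodes the transcription factor PLZF, rose from 11.5, 9.15 and 9.36 CPM to 26.9, 25.1 and 24.5 CPM (log2 fold change 1.37, against 0.25, difference 1.12). UGT2B17, a glucuronosyltransferase that clears androgens, rose from 26.3, 32.2 and 30.5 CPM to 55.7, 58.0 and 55.1 CPM (0.91, against -0.19), and the prostatic acid phosphatase ACP3 from 32.6, 32.6 and 32.9 CPM to 53.3, 55.9 and 54.8 CPM (0.74, against 0.11). In these genes the combination libraries were all higher. MAF, a leucine zipper factor, rose in both settings (1.57 and 1.49, difference 0.07, adjusted p = 0.777). TMPRSS2, the protease of the common ERG fusion, went from 37.2, 35.8 and 35 CPM to 51.1, 49.6 and 49.4 CPM (0.48, adjusted p = 5.99e-04). It measured 283, 250 and 219 CPM with DMSO and 399, 458 and 419 CPM with talazoparib (0.77), and the difference of -0.29 did not pass the test (adjusted p = 0.124), though it did with DESeq2 (-0.28) and without DMSO library A (-0.38).

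KLK3 was little changed. It measured 329, 295 and 289 CPM with enzalutamide and 347, 323 and 323 CPM with the combination, with overlapping groups (log2 fold change 0.12, adjusted p = 0.0468), and 1507, 1409 and 1434 CPM with DMSO against 1707, 1716 and 1616 CPM with talazoparib (0.21). The call was lost under 5 alternative settings, with adjusted p between 0.0909 and 0.188. FKBP5, an androgen-induced chaperone, lay at 119, 118 and 123 CPM against 119, 120 and 124 CPM (0.01, adjusted p = 0.759), while talazoparib alone raised it from 826, 838 and 857 CPM by 0.35 on the log2 scale (difference -0.33, adjusted p = 1.3e-07). PLPP1, a lipid phosphatase, had -0.19 with and 0.41 without enzalutamide (difference -0.60, adjusted p = 7.77e-12), which is an opposite call in each setting.

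Interferon response genes rose in 13 of 48 cases and fell in 4 (median log2 fold change 0.18), and with talazoparib alone in 22 and 5. TRIM22, HERC5 (1.12), which attaches ISG15, and the guanylate-binding proteins GBP2 and GBP3 were among those that rose with enzalutamide. GBP2 was low, at 0.50, 0.50 and 0.86 CPM against 2.12, 2.12 and 2.72 CPM (1.88), and IFI27 (1.61) was lower still. STING1, the adaptor of cytosolic DNA sensing, measured 3.40, 3.23 and 3.09 CPM with enzalutamide and 4.02, 4.08 and 3.84 CPM with the combination, without overlap (0.30, adjusted p = 0.0437). Its log2 fold change was 1.2 without enzalutamide, and the difference of -0.90 passed the test (adjusted p = 2.31e-04). The effect was more negative with enzalutamide for 7 of the 48 genes, or 4 without talazoparib library C, and more positive for 2.

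Of 19 MHC class I and peptide loading genes 4 rose (21.1%) and 5 fell (26.3%), near the 16.5% and 17.9% of all tested genes. These counts ranged from 2 to 5 and from 3 to 7 when single libraries were left out. With talazoparib alone 8 rose and 1 fell, and for 9 of the 19 the effect was more negative with enzalutamide. The heavy chain HLA-B had a log2 fold change of 0.03 (adjusted p = 0.758) against 0.46 without enzalutamide, and the light chain B2M 0.10 against 0.47 (difference -0.38). Of 24 secreted inflammatory and NF-kB genes 6 rose (25%) and 4 fell (16.7%), against 10 and 1 with talazoparib alone. LIF, a cytokine of the IL-6 family, rose from 2.50, 2.69 and 3.02 CPM to 8.62, 8.08 and 8.14 CPM (1.59), and had 1.73 without enzalutamide (difference -0.14, adjusted p = 0.721). IL32, another secreted factor, had 0.12 (adjusted p = 0.623) with enzalutamide and 1.74 without it (difference adjusted p = 5.46e-06).

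Lipid genes fell more often than they rose in the synthetic arm: of 34 cholesterol and fatty acid synthesis genes 17 fell and 7 rose (median log2 fold change -0.10). ELOVL6, a fatty acid elongase, had -0.48, the regulator INSIG1 -0.30, and TM7SF2, a sterol reductase, rose (0.48). The desaturase FADS2 fell from 753, 766 and 731 CPM to 632, 601 and 603 CPM (-0.29, against 0.01 without enzalutamide, difference adjusted p = 1.48e-07), and the stearoyl-CoA desaturase SCD had -0.27 against 0.03. The combination libraries of FADS2 were all lower. In fatty acid oxidation and peroxisomes 13 of 35 genes rose and 7 fell, against 21 and 2 with talazoparib alone. ACOX2, a peroxisomal oxidase of branched substrates, had 0.71. ECI2, an enoyl-CoA isomerase, fell from 109, 106 and 105 CPM to 82.6, 80.8 and 78.1 CPM (-0.40), against 0.15 without enzalutamide (difference -0.55, adjusted p = 1.65e-10), and HADH had -0.25 against 0.30. In these 2 enzymes of mitochondrial and peroxisomal beta-oxidation the calls were opposite in the settings.

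Of 36 autophagy and lysosome genes 21 rose and 2 fell (median log2 fold change 0.12), among them prosaposin PSAP (0.37), the cholesterol exporter NPC1 (0.34) and the autophagosome protein GABARAPL1 (0.48, against 0.75 without enzalutamide). Of 49 collagens, laminins and integrins 23 rose and 4 fell (median 0.18). The basement membrane collagen COL4A5 measured 48.9, 47.4 and 51.9 CPM with enzalutamide and 75.0, 80.6 and 77.2 CPM with the combination, all higher (0.65, adjusted p = 2.15e-15). LAMB3 had 1.18, thrombospondin THBS1 0.75 and the integrin ITGA5 -0.44. COL17A1, TNC and ITGB8, the largest by fold in this list, rested on low counts. Epithelial and mesenchymal state genes rose in 10 of 26 cases and fell in 6: vimentin VIM had 0.43 (1.04 without enzalutamide), the splicing factor ESRP1 -0.36 and the repressor SNAI1 -0.55.

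Histone genes rose in 16 of 44 cases and fell in 10 (median log2 fold change 0.12). H2BC21 (0.78) and H4C8 (0.72) rose and the linker histone H1-4 (-1.34) fell. H2AC18 and other clustered copies share sequence, so their counts are uncertain. In the NRF2, glutathione and metallothionein list 12 of 25 fell and 5 rose. SLC7A11, also an ATF4 target, led the falls, followed by the metallothioneins MT1F (-0.77) and MT1X (-0.58), with GCLM, a subunit of the glutathione-synthesizing ligase, at -0.45. Ferritin light chain FTL rose (0.44, against 0.79 without enzalutamide, difference adjusted p = 4.19e-05). Of 41 MYC and ribosome biogenesis genes 17 fell and 5 rose; the polyamine enzyme ODC1 had -0.36, the MYC antagonists MXD1 and MXD4 0.67 and 0.49, and MYC itself 0.16 (adjusted p = 0.0456). For 12 of these 41 genes the effect was more negative with enzalutamide.

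Wnt ligands, receptors and targets fell in 11 of 33 cases and rose in 5. LEF1, a nuclear effector of the pathway, had a log2 fold change of -0.66 against -0.04 without enzalutamide, and WNT5A, a ligand of the noncanonical branch, -0.62 against -0.77. The receptor FZD4 (0.39 against -0.08) and RNF43, a ligase that removes such receptors (0.53 against -0.14), rose with enzalutamide. Of 10 tested neuroendocrine and plasticity genes 1 rose (10%) and 3 fell (30%), against 16.5% and 17.9% of all tested genes. ENO2, neuron-specific enolase, had -0.30 with and 0.79 without enzalutamide (difference -1.09, adjusted p = 3.29e-07). The histone methyltransferase EZH2 had -0.22.

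Across all tested genes the effects of talazoparib with and without enzalutamide overlapped in part. Of the genes changed with enzalutamide 57.7% were also changed without it, and of those changed without enzalutamide 58.7% were changed with it. These shared 3698 genes moved in the same direction in 3463 cases and in opposite directions in 235. Another 2716 genes passed the test with enzalutamide only, and for 760 of them the difference between the effects passed as well. Conversely, 804 genes passed without and not with enzalutamide and had a tested difference. Among the genes changed in the same direction, the effect with enzalutamide was larger for 236 and smaller for 255 of those whose difference passed. Pearson's r of the log2 fold changes was 0.28 over 18625 genes, which include low-count genes with large SE and are not independent replicates.

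The largest departures between the settings, among protein-coding genes past the threshold with enzalutamide and with sufficient counts there, were outside most lists. MID1, a microtubule-associated ubiquitin ligase (chrX:10445310-10833654, GRCh38), measured 1.53, 1.42 and 1.80 CPM with enzalutamide and 2.56, 3.58 and 2.81 CPM with the combination, but 0.51, 0.58 and 0.51 CPM with DMSO and 0.29, 0.17 and 0.25 CPM with talazoparib. Its log2 fold changes of 0.91 and -1.15 differed by 2.07 (adjusted p = 1.0e-04), and the groups were apart in both settings, at low levels. PLD1, a phospholipase, went from 14.2, 13.9 and 12.9 CPM to 27.8, 24.2 and 28.7 CPM (0.98, against -0.21), and the zinc finger factor ZBTB7C had 1.24 against 0.07. In the other direction PLA2G4D, a cytosolic phospholipase, rose less with enzalutamide (0.88 against 2.58, a difference that was lost under 11 alternatives), as did the secreted olfactomedin OLFM2 (0.61 against 2.07), while the ectonucleotidase ENTPD3 (-0.91 against 0.49) and the guanine nucleotide exchange factor ARHGEF25 (-0.72 against 0.63) had opposite signs. ARHGEF25 passed the test in both settings, and ENTPD3 only with enzalutamide.

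A second pair of drugs of the same kinds gives a reference. Olaparib added to abiraterone raised 2691 genes (14.4%) and lowered 2745 (14.7%), and it shares no library with talazoparib added to enzalutamide. Both additions changed 4082 genes, 63.6% of the genes changed by talazoparib and 75.1% of those changed by olaparib. Of these 4072 moved in the same direction and 10 did not, and Pearson's r over 18625 genes, low-count genes included, was 0.35. The PARP inhibitor, its dose and the androgen-directed agent differ at once between the pairs and cannot be told apart. The effects differed for 41 genes more positive (0.22%) and 68 more negative (0.365%) with enzalutamide and talazoparib, and this total of 109 was between 65 and 113 when single libraries were left out, with 65 without enzalutamide library C, 66 without combination library C, 71 without combination library B and 69 without abiraterone plus olaparib library B.

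ATF4 response genes made up 19 of these 68, so that for 19 of the 44 listed genes the effect was more negative in the talazoparib pair. ATF4 had log2 fold changes of -0.73 and -0.50 in the talazoparib and olaparib pairs (adjusted p of the difference 0.0018), TRIB3 -1.26 and -0.63 (2.74e-04), PSAT1 -1.08 and -0.67 (0.0044) and GARS1 -0.88 and -0.59 (7.43e-04). SESN2 rose with olaparib, from 18.2, 18.1 and 19.3 CPM to 31.0, 28.8 and 29.1 CPM (0.68), and its effects differed by -0.68 (adjusted p = 2.49e-06). In the olaparib pair 34 of the 44 ATF4 response genes, 19 of the 32 ER genes and 11 of the 35 glycolysis and hypoxia genes were lower, and the difference between the pairs passed the test for 1 ER gene (XBP1) and for no glycolysis gene. Among androgen response genes 7 were more positive in the talazoparib pair and 3 more negative. TRPM8 (1.51 and 0.92), ZBTB16 (1.37 and 0.63) and UGT2B17 (0.91 and 0.54) were among the former, and without abiraterone plus olaparib library B the count of 7 was 3.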

How the data were processed

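RNA-seq libraries were made with a stranded mRNA kit. The values deposited by the authors are estimated counts per gene, held as whole numbers: Trim Galore, STAR (build GRCh38) and Salmon on GENCODE annotation made them, according to the submitters' processing notes and the study's methods. No column was left unmapped. Of 63187 gene IDs 62666 had a symbol in GENCODE v44, and the 521 others held 0.12% of counts. The members and lists were chosen with earlier results of these data known, and some lists share genes.

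The counts of all 21 panel libraries were fitted together in edgeR 4.0.16 (R 4.3.3, limma 3.58.1) by the quasi-likelihood test, after filterByExpr and TMM scaling, with Benjamini-Hochberg adjustment over 18625 genes and a threshold of 0.05; printed CPM are TMM-normalized. Fold changes are log2. Named genes were the 8 largest rises and falls (protein coding, with a symbol, higher group averaging 100 counts or more), the 3 largest changes of each list (passing the test), the 6 largest departures each way between the settings under the same limits, and genes the study names. Other examples, motifs and branches of the ATF4 list were chosen by function after values were seen. Alternatives were other scalings, filters, DESeq2 1.42.0, fewer groups, a replicate block, effect size thresholds, no mitochondrial genes and leaving out each library. Some genes of the lists are counted but not reported here.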

Additional observations from a re-analysis of the deposited data

Results flagged for a closer look

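Among the genes picked by the rule for named genes, the following had an effect of talazoparib that differed with and without enzalutamide by edgeR's interaction test at an adjusted p under 0.05. Each value is the log2 fold change with enzalutamide minus that without it. The effect was more negative with enzalutamide by over 1 on the log2 scale for PLA2G4D (-1.71), OLFM2 (-1.46), ENTPD3 (-1.40), ARHGEF25 (-1.35), DNASE1L3 (-1.33), TGM1 (-1.28), PDE2A (-1.17) and ENO2 (-1.09). It was more negative by a smaller amount for DHRS2 (-0.93), STYXL2 (-0.76), WNT10A (-0.76), PDK1 (-0.68), LDHA (-0.65), NIBAN1 (-0.64), LEF1 (-0.62), ERO1B (-0.57) and ECI2 (-0.55). Further genes of this direction were CEL (-0.55), ASNS (-0.50), XBP1 (-0.46), P4HA2 (-0.42), GABARAPL1 (-0.27), PALB2 (-0.26), TM7SF2 (-0.22), ODC1 (-0.21), TAP2 (-0.20) and CREB3L2 (-0.17).

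The effect was more positive with enzalutamide for MID1 (2.07), TRPM8 (1.29), ZBTB20 (1.28), PLD1 (1.19), ZBTB7C (1.17), ZBTB16 (1.12), CDH26 (1.12), BLNK (0.99), NR3C2 (0.97), ACADL (0.56), ATM (0.38), BRCA1 (0.28) and MDC1 (0.15). ARHGEF25, ENO2, PDK1, LDHA, ECI2, ATM, ACADL, NR3C2, CDH26 and MID1 passed the test in both settings with opposite signs. The difference lost its call under 15 alternatives for WNT10A, 14 for CEL, 13 for TAP2, 11 for PLA2G4D, 7 each for MDC1 and NIBAN1, 3 each for ZBTB20 and TM7SF2, and 2 each for CREB3L2 and DNASE1L3. No group had the 4 or more libraries that a check for single outlying samples needs.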

How the results depend on the processing

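No named gene past its threshold changed direction under any alternative, but with upper quartile scaling more genes were called higher than lower, and values near 0, the median of all genes included, changed sign under some alternatives. Asking also for a 2-fold change (log2 of 1) left 443 genes (328 higher, 115 lower) for talazoparib added to enzalutamide, 463 for talazoparib against DMSO, 138 for the difference with and without enzalutamide, 355 for olaparib added to abiraterone and 1 for the difference between the pairs, and testing against a 1.2-fold change left 1159 (711 higher, 448 lower), 1306, 190, 790 and 2. The 109 genes of the difference between the pairs became 279 with no filter on low counts, 223 with DESeq2 and 181 with only the compared groups in the fit. Leaving out single libraries, in a fit that pools the spread over groups, gave 5349 to 5702 genes (2582 to 2940 higher, 2508 to 2928 lower), 5165 to 6093, 1684 to 2588, 4485 to 4910 and 65 to 113 in the same order. Upper quartile scaling gave 3505 higher and 2843 lower genes and total counts alone 2756 and 3758, with shifts of the median of all genes of 0.0194 and -0.0184 on the log2 scale. With the replicate letter as a block (replicate block) the counts were 6308 (3020 higher, 3288 lower), 6229, 2244, 5351 and 102. Libraries of one letter did not deviate together: for the enzalutamide and combination groups the correlations were 0.0405, -0.023 and -0.0293, and 1 of the 3 letters correlated best with itself. Of 105 named genes past the threshold 91 kept it under every alternative. The others were BRCA1, KLK3, CTSS, GSTM2, H2AC18, H2AC20, HLA-F, IGFBP5, ITGB8, PLA2G4D, SNAI2, TNFAIP2, WNT10A and XRCC1. Differences with and without enzalutamide that missed the threshold passed it under 1 to 6 alternatives for BMF, BRCA2, CDC45, CDKN1A, ELOVL6, EZH2, HLA-F, PSAP, TMPRSS2, TNFAIP2 and TNFRSF10D. The cause of these changes was not tested. Genes with few counts were measured with the least precision, and groups of 3 libraries of one cell line limit every comparison.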
